A study of Homo sapiens with 5 samples.

Results

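The neutrophil-attracting CXC chemokines CXCL8, CXCL1, CXCL2 and CXCL3 and the other epithelial chemokines CCL5, CCL20 and CX3CL1 were read on 5 Affymetrix arrays of T84 cells, a human colon carcinoma line grown as a model of intestinal epithelium. Members were all probe sets annotated to these 7 genes. The platform annotation held 7 probe sets for 6 of them, of 7018 probe sets and 4961 genes in all, and all 7 passed the filter on dim probe sets: CXCL8 has 2 and CXCL1, CXCL2, CXCL3, CCL5 and CX3CL1 have 1 each, while CCL20 is not analysed here. The groups are T84 cells without IFN-gamma (1 array, described as a pooled control), T84 cells given IFN-gamma at 1000 U/ml for 6 h (2 arrays) and T84 cells given the same dose for 18 h (2 arrays). All are 1 cell line in culture without added leukocytes. Treated arrays are named as biological replicates in the labels, with nothing on whether their cultures were separate, so each p-value reflects only array-to-array spread, part of which may be technical.

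Chemokines are small secreted proteins that steer leukocytes along a gradient. CXCL8, CXCL1, CXCL2 and CXCL3 carry the glutamate-leucine-arginine motif of chemokines that attract neutrophils, through the receptors CXCR2 and, for CXCL8, also CXCR1. They are classic targets of NF-kB, switched on in gut epithelium by bacterial products, interleukin-1 and tumour necrosis factor. CCL5 draws T cells and monocytes to sites of inflammation. CX3CL1, or fractalkine, is made as a membrane-bound chemokine on a mucin stalk, can be shed by ADAM10 and ADAM17, and binds CX3CR1.

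The promoters of the 4 neutrophil chemokines are shown because these genes lie together on chromosome 4 and share a kB element. Sequences are RefSeq promoters on GRCh38.p14, from 250 bases before to 50 bases after the transcription start, and 4 of the 6 genes had one. Capitals mark matches to a kB motif (GGNNTTTCC) and, in CXCL8, to an AP-1 motif (TGANTCA). CXCL8 is given whole (chr4:73740319-73740618, plus strand), and CXCL1 (chr4:73869285-73869374, plus strand), CXCL2 (chr4:74099213-74099302, minus strand) and CXCL3 (chr4:74038708-74038797, minus strand) as the 90 bases around their kB matches.
CXCL8: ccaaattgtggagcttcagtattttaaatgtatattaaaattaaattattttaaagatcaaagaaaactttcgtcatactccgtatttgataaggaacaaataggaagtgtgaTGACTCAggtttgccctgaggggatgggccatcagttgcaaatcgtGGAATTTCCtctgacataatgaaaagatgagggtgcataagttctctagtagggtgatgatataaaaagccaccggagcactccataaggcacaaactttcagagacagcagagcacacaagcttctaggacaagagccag
CXCL1: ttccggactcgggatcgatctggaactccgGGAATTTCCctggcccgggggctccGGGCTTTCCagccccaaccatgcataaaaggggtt
CXCL2: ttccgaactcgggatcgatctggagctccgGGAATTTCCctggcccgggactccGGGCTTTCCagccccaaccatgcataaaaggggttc
CXCL3: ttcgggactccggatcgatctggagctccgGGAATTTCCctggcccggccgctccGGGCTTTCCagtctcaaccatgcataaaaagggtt

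On either strand, the kB motif was found in 6.26% of 27305 promoters of this length, and in all 4 of these. CXCL8 had 1 match, with its first base at position -91, and CXCL1, CXCL2 and CXCL3 had 2 each, the second at position -53 in all 3. GGAATTTCC was the letter string in CXCL8 and in the first match of the other 3 genes. The AP-1 motif, present in 7.76% of promoters, occurred in CXCL8 alone among the 4, at position -137. The STAT-binding GAS motif (TTCNNNGAA, 7.88% of promoters) occurred in none of these 4 windows. A shortened core of the interferon-stimulated response element (GAAANNGAA, 8.29% of promoters) occurred once in CXCL2, at position -217, and once in CXCL3, at position -233, and in neither CXCL8 nor CXCL1. Over aligned columns of the 300 bases, CXCL1 and CXCL3 were 82.5% identical, CXCL2 was 71.9% identical to CXCL1 and 73.8% to CXCL3, and CXCL8 was 45.2% to 47.9% identical to the other 3. These letter matches are descriptions and not measured binding sites. CXCL1, CXCL2 and CXCL3 also resemble each other in their coding sequence, so signal from one could reach the probe set of another.

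Before any comparison, interferon targets were read on each array. The transcription factor IRF1 read 1086 on the array labelled untreated, 14 and 907 on the 6 h arrays, and 933 and 921 on the 18 h arrays, as linear intensity. The chemokine CXCL10 had 1317, then 41 and 1149, then 1260 and 1399. Of 10 interferon targets tested, all 10 were lowest on the array labelled 6 h replicate 1, 8 of them under 100, and so below their value on the array labelled untreated. There, 4 of the 10 reached at least the lower of the 18 h arrays, and 6 lay below both 18 h arrays, 4 of them by at least 1.5-fold. IDO1, a tryptophan-degrading enzyme, was the farthest below, at 903 and 906 on the 18 h arrays against 113 on the array labelled untreated, with 88 and 153 on the 6 h arrays. Set against each other, the array labelled untreated and the array labelled 6 h replicate 1 oppose their labels, the samples were kept as labelled, and every direction below that uses either array is conditional on its label. Each SE and p-value of the main fit is pooled over both treated pairs, so it draws on the array labelled 6 h replicate 1 in every comparison. In the authors' list of induced genes, the control column, named as in the untreated sample's description, holds 17 for CXCL10 and 43 for IRF1. The array labelled untreated has 1317 and 1086 for them, so the list and the deposited values disagree for that sample. None of the 7 chemokine probe sets is among the 97 entries of that list. All 16 intestinal epithelial markers, such as EPCAM, KRT20 and VIL1, exceeded 100 on at least 1 array. Their summed intensity was highest on the array labelled 6 h replicate 1, at 17626, against 9992 to 13927 on the other 4 arrays. Of the 13 T and natural killer cell markers on the array 1 exceeded 100 (CD3E), of 11 macrophage and neutrophil markers 3 did (MPO, ELANE and LYZ), and CD3G, CD8A, NKG7, CD14 and CD163 never exceeded 20. The summed levels of these lists were 644 and 576 on the array labelled untreated, and ran from 412 to 568 and from 422 to 495 on the treated arrays. Of 10 fibroblast and endothelial markers 2 exceeded 100 (COL1A1 and PECAM1), with summed levels from 341 to 519 on the treated arrays and 347 on the array labelled untreated. The part of the labels and of these markers in the results below was not tested.

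CXCL8, or interleukin-8, stood out on 1 array. Its probe set Y00787_s_at read 68 on the array labelled untreated, 275 and 61 on the 6 h arrays, and 38 and 54 on the 18 h arrays. The array labelled 6 h replicate 1 stood alone, 4.04-fold above the next array, while the other 4 arrays lay between 38 and 68. The epithelial marker sum, in which the brightest markers weigh most, was highest on the same array. Over both 6 h arrays against the array labelled untreated, 5 of the 16 markers were above 0 and 11 below (median -0.05). That count averages the 6 h arrays, whose sums were 17626 and 9992. It cannot describe the array labelled 6 h replicate 1 alone. The array labelled 6 h replicate 1 was at least 2-fold above each of the others in 2.68% of the 5029 probe sets tested. Among the 7 chemokine probe sets this held for 1, CXCL8 by Y00787_s_at.
The second CXCL8 probe set, M28130_rna1_s_at, read 29 on the array labelled untreated, 73 and 37 on the 6 h arrays, and 15 and -1 on the 18 h arrays. It was highest on the same array, at 1.97-fold the next. Both 6 h arrays lay above the array labelled untreated, and both 18 h arrays lay below the floor of 20. Of all probe sets tested, 2.57% lay above the array labelled untreated on both 6 h arrays and below it on both 18 h arrays, and of the 7 chemokine probe sets 1 did. In bulk RNA such as this, fewer cells that make a message and less of it per cell cannot be told apart.

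CXCL1, CXCL2 and CXCL3, the growth-regulated chemokines, were at or near the floor. CXCL1 read 7 on the array labelled untreated, 31 and -1 on the 6 h arrays, and 10 and -12 on the 18 h arrays. It exceeded 20 only on the array labelled 6 h replicate 1, so it passed the filter on dim probe sets through that array alone. CXCL2 read 26 on the array labelled untreated, 11 and 2 on the 6 h arrays, and 2 and -8 on the 18 h arrays. It passed the filter through the array labelled untreated alone, and both treated groups gave only a bound. CXCL3 read 43 on the array labelled untreated, 27 and 23 on the 6 h arrays, and 27 and 18 on the 18 h arrays. All 4 treated values of CXCL3 were below that of the array labelled untreated, and the 6 h and 18 h arrays overlapped. The array on which CXCL1 or CXCL2 was highest was fixed by the filter. So was, with values floored at 20, the sign of any difference that uses that array. Neither is read as a pattern.

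CCL5 (RANTES) read 5 on the array labelled untreated, 51 and 2 on the 6 h arrays, and 27 and 53 on the 18 h arrays. It was above the floor on both 18 h arrays and on 1 of the 2 arrays at 6 h. CX3CL1 read 23 on the array labelled untreated, -83 and 131 on the 6 h arrays, and 227 and 117 on the 18 h arrays. Its 3 values above 100 came from 6 h replicate 2 and both 18 h arrays. On the array labelled untreated CX3CL1 lay near the floor although IRF1 and CXCL10 were high there, and on the array labelled 6 h replicate 1 all 3 genes were low. CX3CL1 and CXCL8 were the only 2 of the 6 genes above 100 on any array, and where CXCL8 was highest CX3CL1 was lowest.

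**Figure D1:**
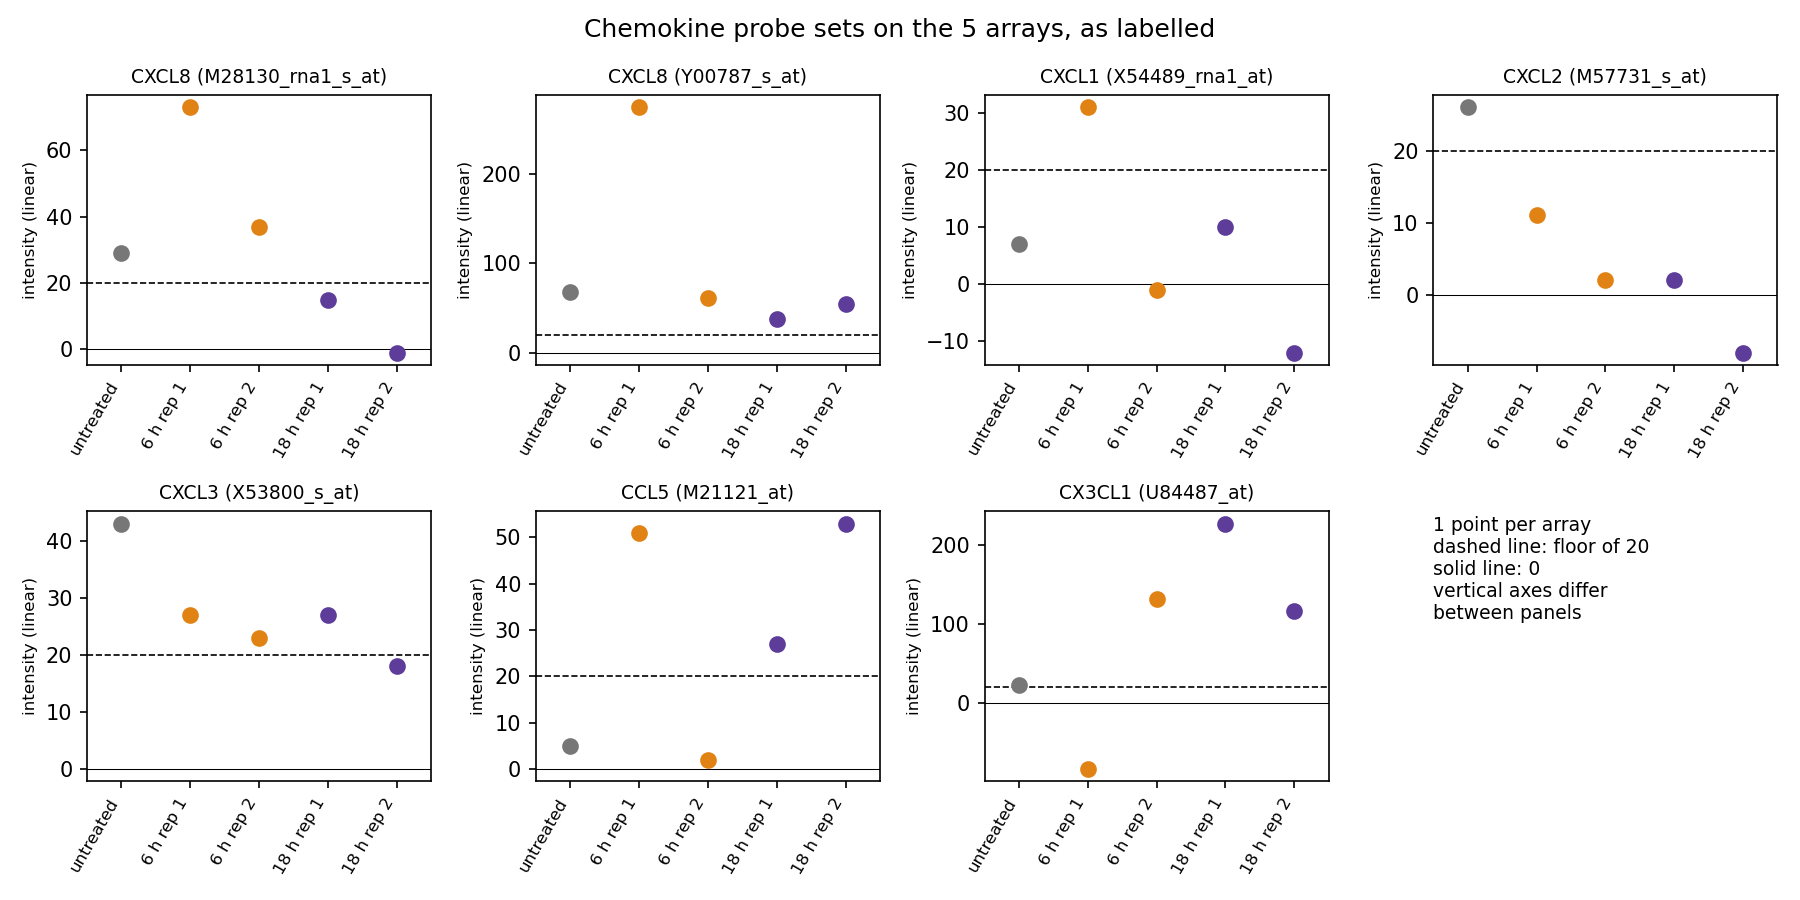
Linear intensity (vertical axis, scaled per panel) of the 7 chemokine probe sets on each of the 5 arrays (horizontal axis), 1 point per array, with the floor of 20 dashed. CXCL8 (Y00787_s_at) stands at 275 on the array labelled 6 h replicate 1 against 38 to 68 elsewhere, and CX3CL1 at 117 to 227 on 6 h replicate 2 and both 18 h arrays against 23 and -83 on the other 2 arrays.

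The 18 h arrays against the array labelled untreated ask which chemokines differ after the longer exposure. Group means were compared by limma on log2 intensities, with values under 20 set to 20 and 1 added, which understates the change of dim genes. Averages and SDs are of the linear intensities without a floor, so they need not correspond to the log2 differences. CX3CL1 averaged 172 ± 77.8 at 18 h (SD, n = 2) against 23 on the array labelled untreated, a log2 difference of 2.77 (SE 1.37, 95% interval -1.41 to 6.96). The 18 h arrays were 9.87-fold and 5.09-fold above the array labelled untreated. It ranked 6th from the top among 5029 probe sets, but did not pass (limma, adjusted p = 1; unadjusted p = 0.13). The SE and p-value of CX3CL1 are pooled with the spread of the 6 h arrays (-83 and 131), which include the array labelled 6 h replicate 1. Both 18 h arrays were at least 2-fold above the array labelled untreated for CX3CL1 alone of the 7 probe sets, against 2.82% of all tested. CCL5 averaged 40.0 ± 18.4 at 18 h (SD, n = 2) against 5, a log2 difference of 0.89 (SE 0.80) with the lower value set to the floor. That difference was 1.36 without 18 h replicate 1 and 0.41 without 18 h replicate 2.

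CXCL8, CXCL3 and CXCL2 had differences below 0 at 18 h, with the sign of CXCL2 fixed by the filter, and none passed. CXCL8 averaged 46.0 ± 11.3 (SD, n = 2) against 68 by Y00787_s_at, a log2 difference of -0.58 (SE 1.08), and the second probe set had -0.51 (SE 0.51). CXCL3 averaged 22.5 ± 6.36 (SD, n = 2) against 43, a difference of -0.86 (SE 0.31, 95% interval -1.80 to 0.08). CXCL2 was under the floor on both 18 h arrays and CXCL1 on all 3 arrays of this comparison.
Groups did not overlap, with 18 h higher, in 2 of the 7 chemokine probe sets (23.4% of all tested), and with 18 h lower in 4 of 7 (35.4% of all tested). CCL5 is in the first share and could not be lower there, and CXCL2 is in the second, its place fixed by the filter. With 7 probe sets, several of them at the floor, these shares are not read as a result about the chemokines. The median log2 difference was -0.36 over the 7 probe sets and -0.02 over all 5029. The -0.36 is the value of CXCL2, whose sign was fixed by the filter, so it is not read as a shift. None of the 7, and 0.0% of all probe sets, passed limma with Benjamini-Hochberg adjustment, and 223 of all had an unadjusted p under 0.05 (4.43%).

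The 6 h arrays against the array labelled untreated, which shares its single control array with the comparison above, ask about early exposure. The 2 arrays at 6 h disagreed for the genes that differed most. CX3CL1 averaged 24.0 ± 151 (SD, n = 2) at 6 h against 23, with a log2 difference of 1.13 (SE 1.37) that came to 2.46 without 6 h replicate 1 and to -0.19 without 6 h replicate 2. CXCL8 by Y00787_s_at averaged 168 ± 151 (SD, n = 2) against 68, with a log2 difference of 0.92 (SE 1.08) that came to -0.15 without 6 h replicate 1 and to 2.00 without 6 h replicate 2. The second CXCL8 probe set averaged 55.0 ± 25.5 (SD, n = 2) against 29, a difference of 0.82 (SE 0.51), which was 0.34 without 6 h replicate 1. CCL5 had a difference of 0.65 (SE 0.80), and 0 without 6 h replicate 1. With the floor, that difference could not be below 0.

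CXCL3 was the member whose 6 h arrays stood closest together, at 25 ± 2.83 (SD, n = 2) against 43, a log2 difference of -0.76 (SE 0.31, 95% interval -1.70 to 0.17). CXCL2 was under the floor on both 6 h arrays against 26, and CXCL1 had a difference of 0.30 (SE 0.36). With 6 h higher, groups did not overlap in 1 of 7 chemokine probe sets (CXCL8 by M28130_rna1_s_at, against 19.8% of all tested). With 6 h lower they did not overlap in 2 of 7 (CXCL2 and CXCL3, against 27.8% of all tested). The place of CXCL2 there was fixed by the filter, and these shares are not read as a result about the chemokines. The median log2 difference was 0.65 over the 7 and 0 over all probe sets. The 0.65 is the value of CCL5, so it is not read as a shift. Without the array labelled 6 h replicate 1, on which alone CXCL1 passed the filter, the median over the remaining 6 was -0.08. None of the 7 passed limma (adjusted p = 1 for each), and of all probe sets 0.0% passed and 183 (3.64%) had an unadjusted p under 0.05.

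The 18 h arrays against the 6 h arrays test whether the times differ. CXCL8 was lower at 18 h by both of its probe sets, with no overlap of the groups. By M28130_rna1_s_at it averaged 7 ± 11.3 at 18 h and 55.0 ± 25.5 at 6 h (SD, n = 2 each), a log2 difference of -1.34 (SE 0.41, 95% interval -2.60 to -0.07). That probe set had an unadjusted p of 0.0433 in limma and did not pass after adjustment (adjusted p = 0.94). Both of its 18 h values were set to the floor, so that pair added no spread to the SE and interval. With a floor of 50 the difference was -0.27. By Y00787_s_at CXCL8 averaged 46.0 ± 11.3 at 18 h and 168 ± 151 at 6 h (SD, n = 2 each), a difference of -1.50 (SE 0.88). Without the array labelled 6 h replicate 1 these differences were -0.86 and -0.42, in the same direction and smaller. The array labelled untreated does not enter these differences, so leaving it out cannot change them.

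CX3CL1 averaged 172 ± 77.8 at 18 h and 24.0 ± 151 at 6 h (SD, n = 2 each), a log2 difference of 1.64 (SE 1.12, 95% interval -1.78 to 5.06) that came to 0.31 without the array labelled 6 h replicate 1. One 18 h array (117) lay below 6 h replicate 2 (131), so the groups overlapped. CCL5 (0.23, SE 0.66), CXCL1 (-0.30, SE 0.29), CXCL3 (-0.10, SE 0.25) and CXCL2 (0, all 4 arrays under the floor) had smaller differences. With 18 h lower, groups did not overlap in 2 of 7 probe sets, both of CXCL8 (13.6% of all tested), and with 18 h higher in 0 of 7 (11.4%). An unadjusted p under 0.05 was found for 1 of 7, against 217 of all probe sets (4.31%), and 0.0% passed after adjustment.

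**Figure D2:**
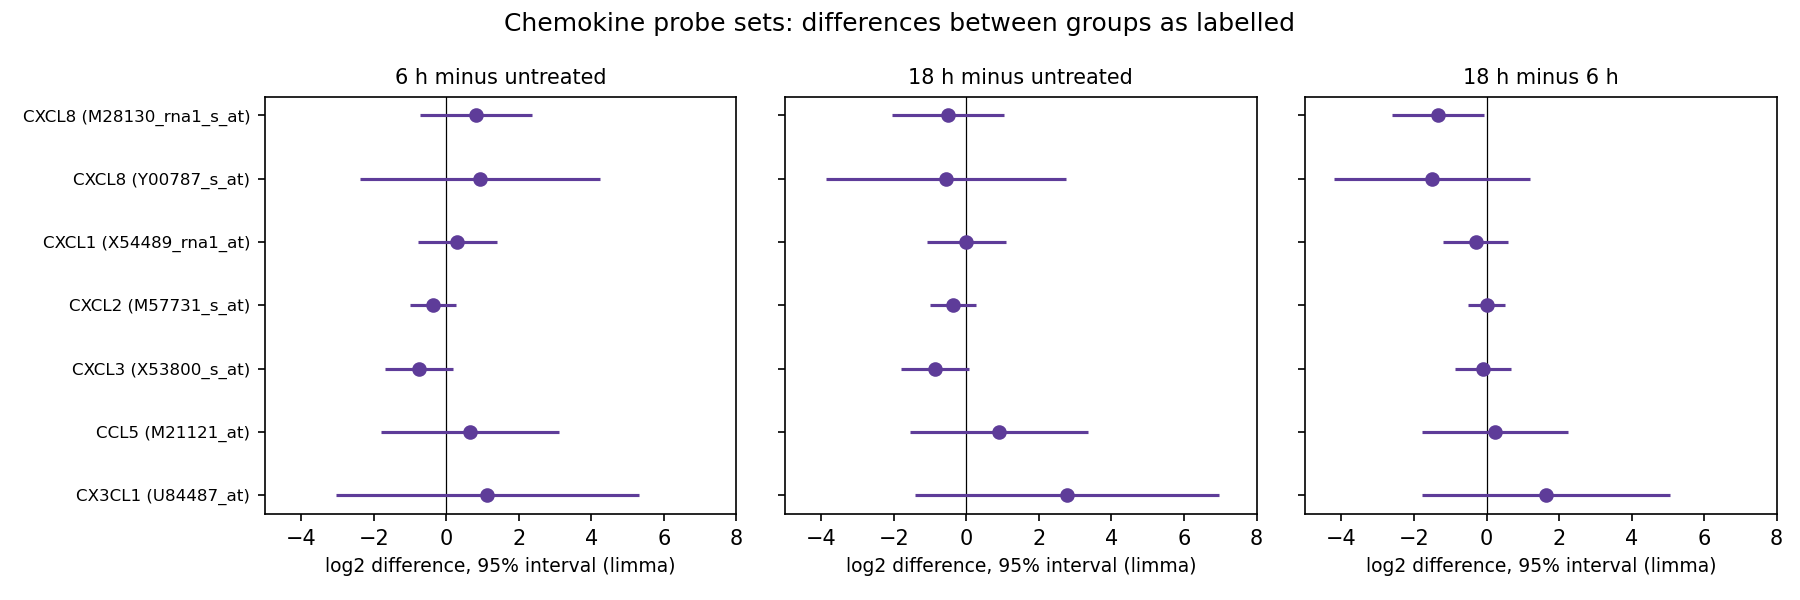
Log2 difference (horizontal axis) of each chemokine probe set (rows) at 6 h minus untreated, 18 h minus untreated and 18 h minus 6 h, as points with limma's 95% interval as lines. Every interval holds 0 apart from that of CXCL8 (M28130_rna1_s_at) at 18 h minus 6 h, -2.60 to -0.07, whose adjusted p is 0.94. Both 18 h values of that probe set were set to the floor, so that pair added no spread to the interval.

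Probe sets of other genes with the most similar profile were sought for the 2 members above 100 on any array, by the mean absolute difference of log2 profiles over the 5 arrays, each centred on its mean. For CXCL8 (Y00787_s_at), among 2134 candidates, these were AKR1C3, an aldo-keto reductase (0.18), the imprinted non-coding RNA H19 (0.22) and TFDP2, a partner of E2F factors (0.23). AKR1C3 read 62 on the array labelled untreated, 204 and 49 on the 6 h arrays, and 26 and 56 on the 18 h arrays. H19 had 110 and TFDP2 91 on the array labelled 6 h replicate 1, and both were under the floor on the other 4 arrays.
For CX3CL1, among 2135 candidates, the nearest were PFKFB4, a regulator of glycolysis (0.20), STAT6, which acts downstream of interleukin-4 (0.26), and the kinase MAP2K3, which activates p38 (0.28). PFKFB4 read 10 on the array labelled untreated, -3 and 166 on the 6 h arrays, and 219 and 86 on the 18 h arrays. STAT6 had 32, then 3 and 116, then 151 and 117. With 5 arrays these are descriptions of likeness only.

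**Figure D3:**
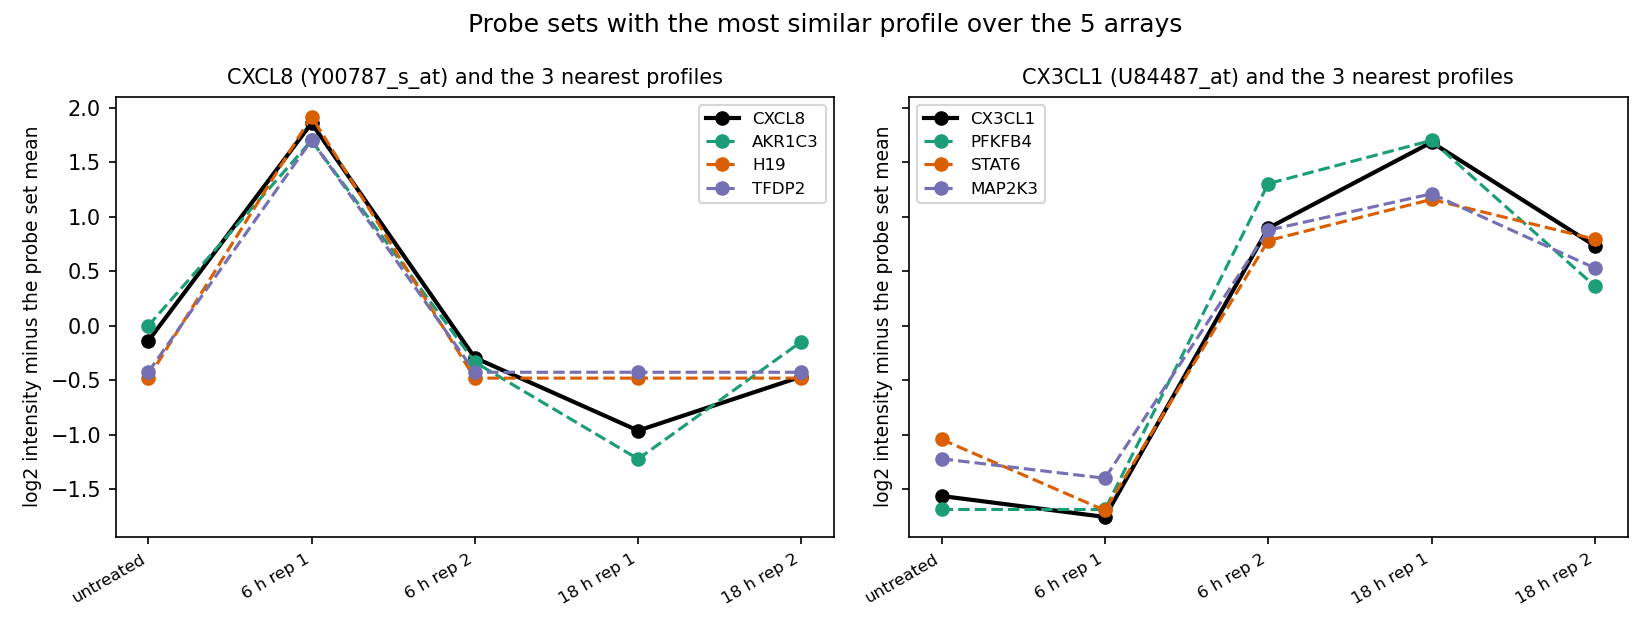
Log2 intensity minus each probe set's mean (vertical axis) on the 5 arrays (horizontal axis) for CXCL8 and CX3CL1 (black) and the 3 most similar profiles of other genes (dashed). The CXCL8 panel peaks on the array labelled 6 h replicate 1, and the CX3CL1 panel is low there and on the array labelled untreated.

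Genes around the chemokines were read from lists, 1 probe set per gene, and none passed limma after adjustment in any comparison. Of all 3784 genes tested, 1620 were above 0 and 1962 below at 18 h against the array labelled untreated. Of the receptors, 7 genes were on the array by 13 probe sets, of which 7 never exceeded 20 and 1 exceeded 100, that of the decoy receptor ACKR1. ACKR1, which binds CXCL8 and CCL5 without signalling, read 55 on the array labelled untreated, 113 and 124 on the 6 h arrays, and 100 and 120 on the 18 h arrays. CXCR1 and CXCR2 reached at most 79, CX3CR1 at most 17, and both probe sets of CCR6 were negative on every array.

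Of 14 other chemokines tested, 8 had a difference above 0 and 5 below 0 at 18 h against the array labelled untreated, with a median of 0.04, against a median of -0.02 over all 3784 genes. CCL17, a ligand of CCR4, averaged 49.5 ± 0.71 at 18 h (SD, n = 2) against 165, a log2 difference of -1.72 (SE 0.69). CCL22, another CCR4 ligand, averaged 398 ± 25.5 against 272, a difference of 0.55 (SE 0.23). CXCL9, an interferon-induced ligand of CXCR3, averaged 381.5 ± 7.78 against 271, a difference of 0.49 (SE 1.21), and CCL7 had 0.49 (SE 0.24). At 6 h against the array labelled untreated, 3 of the 14 were above 0 and 10 below (median -0.50, against 0 over all genes). Those below include the interferon targets CXCL9, CXCL10 and CXCL11 (-1.24, -2.58 and -2.94). Both arrays that oppose their labels enter this comparison, and the list was not read without them.

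The NF-kB pathway, which drives the neutrophil chemokines, had 7 genes above 0 and 6 below at 18 h against the array labelled untreated (13 tested, median 0.02). TNIP1, an inhibitor of the pathway, averaged 384 ± 62.2 at 18 h (SD, n = 2) against 208, and the feedback inhibitor TNFAIP3 281 ± 2.83 against 210. TRAF6, which relays interleukin-1 and Toll-like receptor signals, averaged 46.0 ± 11.3 against 109, and NFKB1 106.5 ± 62.9 against 185. At 18 h against 6 h, 11 of the 13 were above 0 with a median of 0.54. Of all 3784 genes 1747 were above 0, with a median of -0.02. The 6 h group holds the array labelled 6 h replicate 1, and the list was not read without it. NFKB1 was one of the 13 and had -13 on the array labelled 6 h replicate 1 and 191 on 6 h replicate 2.

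AP-1, C/EBP and ERK genes had 14 of 19 above 0 at 6 h (median 0.38) and 12 of 19 at 18 h (median 0.15), both against the array labelled untreated. Of all 3784 genes, 1765 were above 0 at 6 h and 1620 at 18 h. How far the 6 h count rests on the array labelled 6 h replicate 1 was not tested. EGR1, an immediate early factor, read 120 on the array labelled untreated, 369 and 74 on the 6 h arrays, and 68 and 38 on the 18 h arrays, so that, like CXCL8, it was highest on the array labelled 6 h replicate 1. CEBPG, a C/EBP family factor, had 32, then 152 and 60, then 67 and 60. The kinase MAP2K3 had 59, then 52 and 256, then 323 and 201, and the ERK phosphatase DUSP5 89, then 113 and 138, then 207 and 149.

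Among 17 cytokines, receptors and signalling genes upstream of these chemokines, which include the interleukin-1 antagonist IL1RN and the decoy receptor IL1R2, 5 were above 0 and 12 below at 18 h against the array labelled untreated (median -0.16). The kinase IRAK1, of the interleukin-1 receptor pathway, averaged 1184.5 ± 177 at 18 h (SD, n = 2) against 1370. HBEGF, a ligand of the EGF receptor, exceeded the floor at 114 on the array labelled 6 h replicate 1 and at 33 on 18 h replicate 1 and was negative on the other 3 arrays. The cytokine LIF averaged 128.5 ± 31.8 against 158, and CSF3, the granulocyte growth factor, 81.0 ± 39.6 against 61.

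Among 7 genes that bind or destabilise AU-rich messages, a class that includes the chemokine messages, 2 were above 0 and 5 below at 18 h (median -0.18). ELAVL1, a stabilising RNA-binding protein, averaged 24.0 ± 1.41 (SD, n = 2) against 76, HNRNPD 194.5 ± 23.3 against 273, ZFP36L1 98.0 ± 79.2 against 27 and ZFP36L2 211 ± 97.6 against 226. On the 6 h arrays ELAVL1 read -10 and 138, and ZFP36L2 -1 and 180. The log2 difference of ELAVL1 at 18 h against the array labelled untreated was -1.62 (SE 1.33). Of 13 proteases and proteoglycans that cut or hold chemokines, 7 were above 0 and 5 below (median 0.02). DPP4, a peptidase that trims chemokines, averaged 99 ± 19.8 at 18 h (SD, n = 2) against 52, SDC4 452.5 ± 153 against 257, HSPG2 31.5 ± 3.54 against -61 and the epithelial protease MMP7 123 ± 28.3 against 171. The 12 adhesion genes had 5 above 0 and 6 below (median -0.02), and ALCAM, a ligand of CD6, averaged 173.5 ± 120 against 63. ITGAL was above the floor on the array labelled 6 h replicate 1 and on 18 h replicate 2 (127 and 106), ICAM2 averaged 55.5 ± 6.36 against 46, and SELP 86.5 ± 26.2 against 92.

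**Figure D4:**
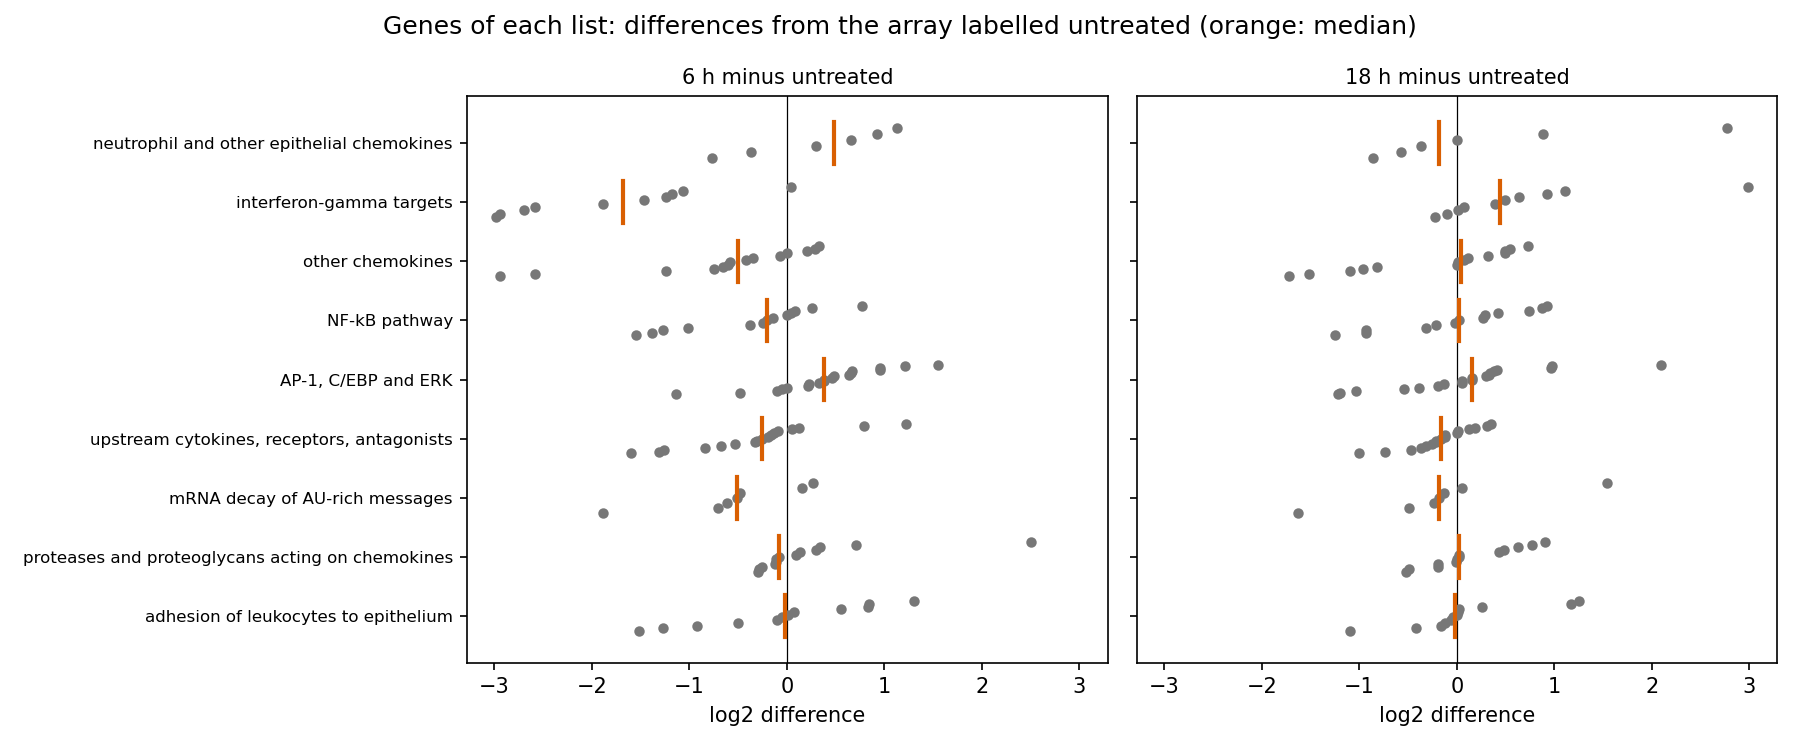
Log2 difference from the array labelled untreated (horizontal axis) of each tested gene (points, 1 probe set per gene) by list (rows), at 6 h (left) and 18 h (right), with the list's median as an orange line. The epithelial chemokines spread over both sides of 0 in both panels, from -0.86 for CXCL3 to 2.77 for CX3CL1 at 18 h.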

How the data were processed

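Trizol RNA of T84 cells was biotinylated and hybridised to Affymetrix arrays, per the labels' protocols. The deposited values are linear intensities per probe set, as whole numbers that include negative ones. The computation and any scaling of these intensities before they were deposited are not stated in the labels or files. A deposited list of induced genes was read only for its control column and its entries. Probe sets were named by the supplied platform annotation (5649 of 7018 with 1 gene, 321 with several, 1048 with none; 0 symbols needed updating), and no array copied another (at most 141 equal values).

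A floor of 20 was applied, followed by log2(intensity + 1). Probe sets never above 20 (1989) were left out, which left 5029. limma 3.58.1 in R 4.3.3 (lmFit, eBayes) was fitted to all 5 arrays in 3 groups, with 2 residual and 1.24 prior degrees of freedom, Benjamini-Hochberg adjustment over the 5029 and a threshold of 0.05. The lone untreated array was given the spread of the treated arrays. The number of arrays limits the precision. Motifs and identities were computed in Python 3.11.15 with Biopython 1.88. The interferon-stimulated response element core was shortened after a longer form, which matched none of the 4 promoters shown, had been searched, so its matches depend on that choice.

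Members, gene lists and settings were chosen with earlier results of these data known. Named genes are the members, the interferon check, in each list up to 4 genes above 100 on at least 1 array with the largest difference at 18 h against untreated (the interferon targets beyond CXCL10, IRF1 and IDO1 are given as counts), and 3 similar profiles, among probe sets with a log2 range of at least 1, per member above 100. List counts use each gene's brightest probe set. Alternatives were floors of 0, 50 and 100, a pseudocount of 16, quantile normalization, no filter, a replicate block, each treated array left out, and only the groups compared. Same-numbered arrays deviated oppositely (correlation -0.29 over 5029 probe sets). The 6 h deviation uses the array labelled 6 h replicate 1, which opposes its label, so this cannot decide whether same-numbered cultures were paired. The main fit took no pairing.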

Additional observations from a re-analysis of the deposited data

Results flagged for a closer look

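CXCL8 by M28130_rna1_s_at lay above the array labelled untreated (29) on both 6 h arrays (73 and 37) and below it on both 18 h arrays (15 and -1), so the 2 times went opposite ways on every array. The same was true of 2.57% of the 5029 probe sets tested. The difference between the times was tested by limma as 18 h against 6 h, with a log2 difference of -1.34 and adjusted p = 0.94. Both 18 h values were set to the floor in that fit. By the other CXCL8 probe set, 6 h replicate 2 (61) was under the array labelled untreated (68), so it did not share the pattern.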

How the results depend on the processing

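Under the alternatives, 215 log2 differences of the chemokine probe sets kept their sign and their side of the threshold. Another 15 were 0 in both fits, 7 were 0 in one of them, 10 changed sign and 2 newly passed. Many could not move, since no filter, only the groups compared, or leaving out an array of neither group cannot change a log2 difference. No adjusted p of the main fit was near the threshold either, so these counts do not measure robustness. With a floor of 0, 6 h against untreated turned to -1.06 for CX3CL1 and to -0.50 for CXCL1. Over the fits that leave out 1 treated array, 6 h against untreated ran from -0.19 to 2.46 for CX3CL1 and from -0.15 to 2.00 for CXCL8 (Y00787_s_at), and 18 h against 6 h from -0.42 to 0.89 for CCL5 and from -0.30 to 0.11 for CXCL3. CXCL3 also had 0.015 at 18 h against 6 h without both arrays that oppose their labels, a setting chosen after seeing the data. CX3CL1 at 18 h against untreated ran from 0.70, with a floor of 100, to 3.25, and CCL5 from 0.041, with a floor of 50, to 2.70, with a floor of 0.

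With no filter, limma called 3 probe sets higher and 94 lower at 18 h against untreated, 5 higher and 95 lower at 6 h against untreated, and 1 lower at 18 h against 6 h. Of these 97, 100 and 1 calls, 91, 92 and 1 had equal floored values within both treated pairs, and CXCL2, at the floor on all 4 treated arrays, was among them (adjusted p = 0.00627 at 18 h and 0.00606 at 6 h, over a range up to 1 under the others). With a replicate block, 0 probe sets were called in any comparison and CX3CL1 at 18 h against untreated had 2.35. With the block crossed between the times, chosen after seeing the data, 0 were called as well and CXCL8 (Y00787_s_at) at 18 h against untreated turned to 0.087. The cause of these changes was not tested. The authors' control column gave no value, since their list holds 0 of these probe sets. Intensities near the floor limit CXCL1, CXCL2, CXCL3 and CCL5.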
